A study of Homo sapiens with 7 samples.

Results

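The 46 genes described here encode the core machinery that copies DNA in human cells, and were taken by name from the 26175 genes of the RNA-seq table. They cover the origin recognition complex, the licensing factors, the MCM helicase, the factors that activate it, the replicative polymerases with their primase, the sliding clamp and its loader, the single-strand binding protein RPA, the enzymes that join Okazaki fragments, and the topoisomerases. All were under 1 growth condition, so the genes are compared with each other and with all genes of the series, not between treatments.

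The cells are T-47D, a luminal breast cancer line, as its subline A1-2, which was engineered with extra glucocorticoid receptor from rat and with luciferase under a mouse mammary tumor virus promoter in the genome. They were grown in 10% serum and kept in medium with 5% charcoal-stripped serum for at least 24 hours before harvest, and the labels name no treatment. Of the 7 libraries, 1 Start-seq library gave the start site calls used here and 3 stranded poly(A) RNA-seq libraries, merged by the authors, gave 1 FPKM value per gene (fragments mapped to the gene, scaled by transcript length and by library size). There is therefore no replicate error on any value here, and the differences between genes were not tested.

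Start-seq sequences short capped nuclear RNA, whose 5' end marks a transcription start site (TSS) to the nucleotide. A gene TSS is the start called on the strand of the gene, an upstream antisense TSS (uaTSS) is a start on the opposite strand within 1000 nts upstream of it, and a downstream antisense TSS (daTSS) is an opposite-strand start within 2000 nts downstream. A called start is a position without a read count, so its depth is not known and a missing call does not show that no RNA starts there. The luminal markers were all detected, from 44.1 FPKM for ESR1 to 1142 FPKM for KRT8, whereas the basal keratins KRT5 and KRT14 and the mesenchymal factor ZEB1 were listed at 0 and VIM stood at 0.864 FPKM.

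As background, DNA replication begins when the origin recognition complex, CDC6 and CDT1 load the MCM helicase onto DNA during G1 phase, and it starts when CDC7-DBF4 and cyclin-dependent kinases turn the helicase on by adding CDC45 and GINS. Polymerase alpha-primase then makes the primers, polymerases epsilon and delta extend them while held by the PCNA clamp, and FEN1 and LIG1 finish the lagging strand. Many of these genes are known targets of the E2F transcription factors, which are held back by the retinoblastoma protein until cells enter the cycle.

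The E2F core was written as TTCGCGC or TTGGCGC and searched by exact match on both strands, from 200 nts upstream to 50 nts downstream of each called gene TSS. Other forms of the E2F site were not searched. Of the 43 gene TSSs called for the replication genes, 12 held at least 1 core (27.9%, 95% Clopper-Pearson interval 15.3 to 43.7%, counting of calls only), where the background over all 10391 gene TSSs was 7.84%. The genes were CDC6 and GMNN of the licensing factors, MCM3, MCM5 and MCM6 of the helicase, ORC2, GINS1, POLA1, POLA2, POLE2, RFC1 and RFC5. The promoters with the cores nearest to the gene TSS are shown here in hg19, because in these the motif lies beside the base where transcription was measured to start. Each runs from 60 nts upstream to 20 nts into the transcript, on the strand of the gene, with the E2F core and the base of the gene TSS in capitals.
RFC5: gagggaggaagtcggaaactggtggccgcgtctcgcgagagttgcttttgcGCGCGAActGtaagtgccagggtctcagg
CDC6: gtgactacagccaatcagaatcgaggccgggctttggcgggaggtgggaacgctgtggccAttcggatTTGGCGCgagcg
RFC1: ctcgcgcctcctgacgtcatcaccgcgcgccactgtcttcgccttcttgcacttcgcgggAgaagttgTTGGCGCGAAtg
POLA1: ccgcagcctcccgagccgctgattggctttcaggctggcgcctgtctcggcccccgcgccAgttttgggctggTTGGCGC
MCM3: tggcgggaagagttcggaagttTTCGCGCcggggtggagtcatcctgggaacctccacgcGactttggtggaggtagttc
GINS1: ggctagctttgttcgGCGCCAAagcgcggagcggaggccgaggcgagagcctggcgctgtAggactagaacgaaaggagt
POLA2: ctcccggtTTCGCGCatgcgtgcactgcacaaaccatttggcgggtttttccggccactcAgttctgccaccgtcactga

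These windows are chr12:118454472-118454551 for RFC5, chr17:38444071-38444150 for CDC6, chr4:39367937-39368016 for RFC1, chrX:24711978-24712057 for POLA1, chr6:52149486-52149565 for MCM3, chr20:25388299-25388378 for GINS1 and chr11:65029373-65029452 for POLA2. RFC1 and MCM3 lie on the minus strand and the others on the plus strand. In RFC5, a subunit of the clamp loader, the core was centered 6 nts upstream of the gene TSS. In CDC6, the helicase loader, and in RFC1, the large clamp loader subunit, a core was centered 11 nts downstream, inside the transcribed sequence. POLA1, the catalytic subunit of polymerase alpha, had a core 16 nts downstream, the last bases of the window printed, and another 137 nts upstream. The cores of MCM3, GINS1 and POLA2 lay 35, 42 and 49 nts upstream, respectively.

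MCM6, a subunit of the helicase ring, held 4 of the 17 matches. The word TTGGCGC and, on the opposite strand, the word TTCGCGC overlap in the sequence TTGGCGCGAA. This sequence counts as a match on each strand, and MCM6 held it in 2 places. They are shown in the stretch from 180 to 91 nts upstream of its gene TSS (chr2:136634086-136634175, minus strand), chosen after the values were seen, with the cores in capitals.
MCM6: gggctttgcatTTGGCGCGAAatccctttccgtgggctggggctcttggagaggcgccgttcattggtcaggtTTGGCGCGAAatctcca

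RFC1 held TTGGCGCGAA once, as its printed promoter shows. Of the 17 matches, 13 were upstream of the gene TSS and 9 were between 30 and 160 nts upstream (76.5% and 52.9%, beside 82.7% and 57.4% of the E2F cores at all gene TSSs). The farther ones were those of POLE2 at 83 nts, GMNN at 134 nts, ORC2 at 154 nts and MCM5 at 196 nts upstream. The genes with and without an E2F core had close median levels in ranges that overlap: 33.8 FPKM over 12 genes (11.0 to 95.2) and 33.3 FPKM over the other 27 genes with a called gene TSS (5.90 to 259). The genes without a core lack an exact match to either word, and may hold other forms of the site.

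The CCAAT box, the site of the factor NF-Y, was searched in the same window. It was found at 22 of the 43 gene TSSs (51.2%, 35.5 to 66.7%), of 20 genes, against 31.7% of all gene TSSs. Of its 38 matches, 37 were upstream of the gene TSS (97.4%) and 33 lay between 30 and 160 nts upstream (86.8%). Of the CCAAT boxes at all gene TSSs, 93.1% were upstream and 73.1% lay in that stretch. CDC6, MCM5, TOP2A and the PCNA start near CDS2 each had 3 CCAAT boxes. CCAAT boxes and E2F cores occurred together at 8 gene TSSs (18.6%, against 3.13% of all gene TSSs), those of CDC6, GMNN, MCM3, MCM5, MCM6, ORC2, GINS1 and POLA1. The remaining genes with an E2F core, POLA2, POLE2, RFC1 and RFC5, had no CCAAT box in the window.

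**Figure D1:**
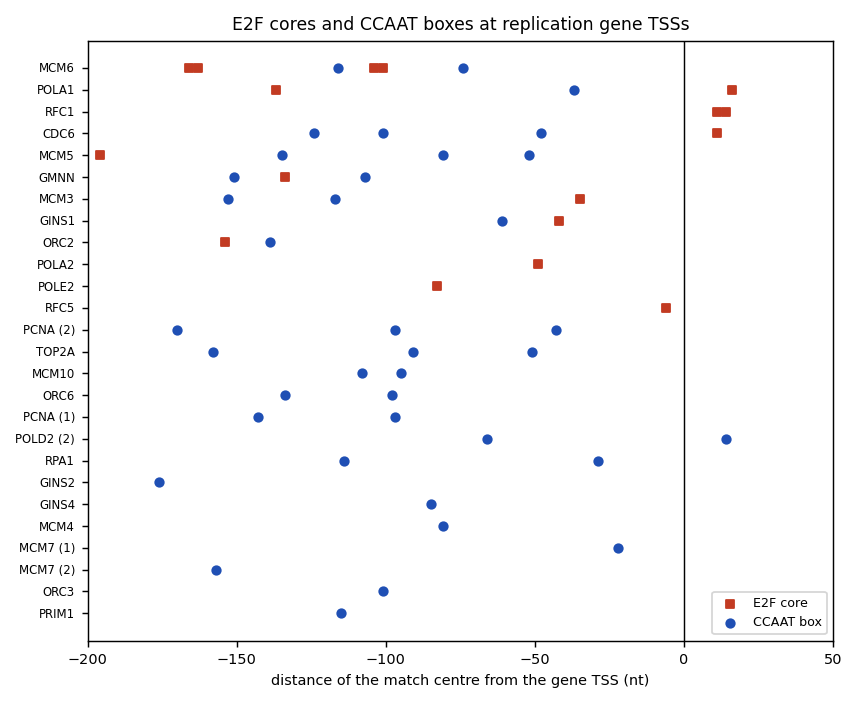
Positions of E2F cores (squares) and CCAAT boxes (circles) relative to the gene TSS, in nts, at the replication gene TSSs that hold either; (1) and (2) mark the gene TSSs of a gene with more than 1, by rising genome position. Of 38 CCAAT boxes 37 lie upstream, whereas the E2F cores of RFC1, CDC6 and POLA1 include matches downstream of the start.

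The other words were found at shares near those of all gene TSSs. The GC box GGGCGG, bound by SP1, was present at 28 gene TSSs (65.1%, against 68.9%) and the ETS core CCGGAAG at 8 (18.6%, against 18.4%). The core of the cell cycle homology region, TTTGAA, which is known from genes expressed late in the cycle, was found at 4 gene TSSs (9.30%, against 6.68%), those of DBF4, POLD1, TOP2A and TOP2B. TOP2A, the topoisomerase of mitotic chromosomes, held it 148 and 191 nts upstream. TATAA between 35 and 24 nts upstream was found at none of the 43 gene TSSs (interval up to 8.22%), and at 2.43% of all. A pyrimidine followed by a purine stood at the start in 29 (67.4%, against 66.1%). GC content in the 100 nts around the gene TSS averaged 65.0% (54 to 78%), beside 67.2% over all gene TSSs. A match to a short word is a description of the sequence and was not tested as a binding site.

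All 46 genes were expressed: each had at least 1 FPKM, where the background over all genes was 46.9%. The median was 32.4 FPKM (quartiles 21.2 and 61.8), beside 16.6 FPKM over the 9759 genes with a called gene TSS. In the highest 10.0% of all genes, at 42.4 FPKM or more, were 18 of the 46. The levels spanned 43.9-fold, from PCNA at 259 FPKM to ORC4 at 5.90 FPKM. FPKM is already divided by transcript length, and across the 46 genes it had a Spearman correlation of -0.27 with the length of the annotated main transcript, close to the -0.25 across 11202 genes with at least 1 FPKM.

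**Figure D2:**
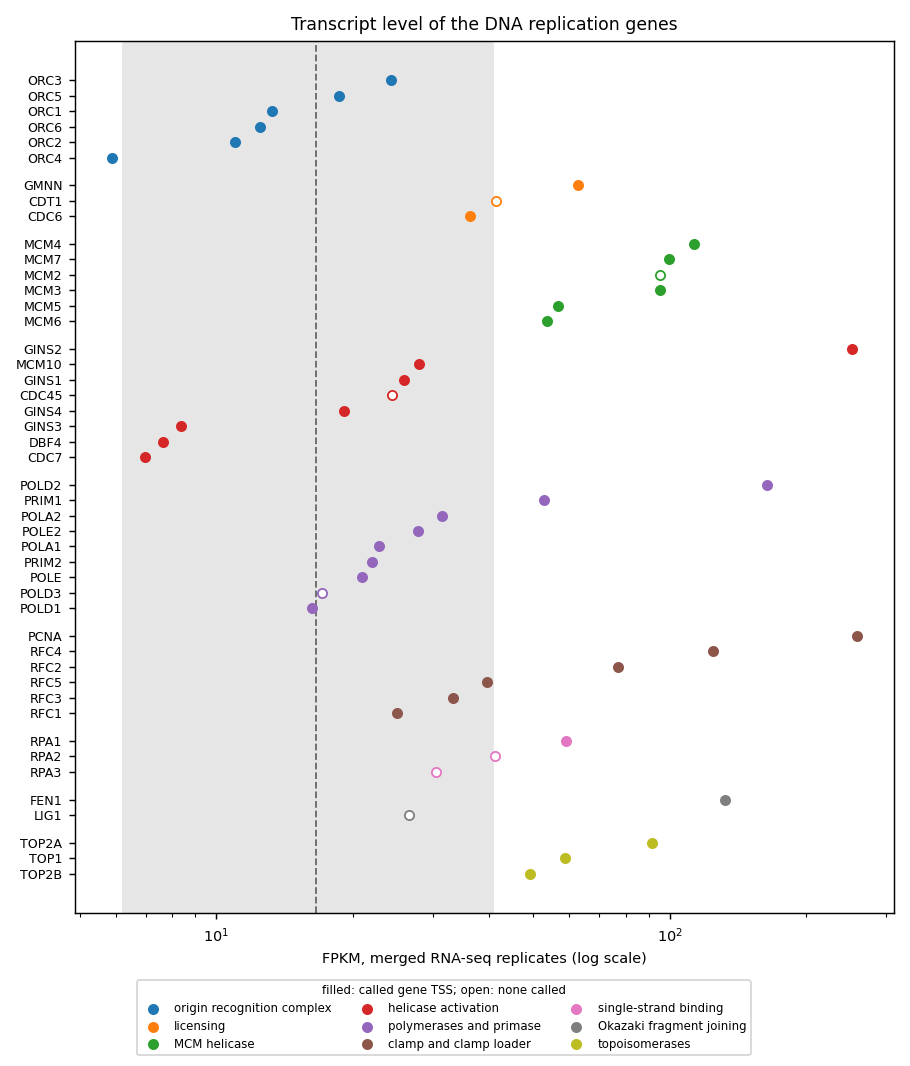
FPKM of each replication gene from the merged RNA-seq replicates, on a log axis, grouped by role; open circles are genes without a called gene TSS, the dashed line is the median (16.6) and the grey band the quartiles (6.24 to 40.7) of all genes with a called gene TSS. The MCM helicase subunits lie to the right of the band, and the origin recognition complex lies in its left part or below it, except ORC3 and ORC5.

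The 6 subunits of the origin recognition complex, which marks the sites where the helicase is loaded, had the lowest median of any role, 12.9 FPKM. ORC3 had 24.3 FPKM, ORC5 18.6, ORC1 13.3, ORC6 12.5, ORC2 11.0 and ORC4 5.90. The highest and lowest subunit therefore differed 4.12-fold, although the subunits work in 1 complex. The licensing factors stood higher. The loader CDC6 had 36.3 FPKM, its partner CDT1 41.4, and geminin (GMNN), the inhibitor of CDT1, had 62.6, which is 1.51 times CDT1.

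The helicase that these factors load was higher and more even than the origin recognition complex. Its 6 subunits lay within 2.11-fold of each other, at 113 FPKM for MCM4, 99.9 for MCM7, 95.3 for MCM2, 95.2 for MCM3, 56.6 for MCM5 and 53.8 for MCM6. The lowest of them was 2.21 times the highest origin recognition subunit, so the FPKM ranges of the helicase and of that complex did not overlap.

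The helicase activators had the widest range of any role, 36.2-fold. Most of it came from GINS, a ring of 4 different subunits that joins the MCM helicase: GINS2 had 252 FPKM, GINS1 25.9, GINS4 19.1 and GINS3 8.35. GINS2 was thus 30.1 times GINS3. CDC45, which binds the helicase together with GINS, had 24.4 FPKM and MCM10, which helps to start it, 28.0. The kinase that fires origins was low in both parts, with 6.95 FPKM for the catalytic CDC7 and 7.63 for its activator DBF4.

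The polymerase and primase subunits had a median of 22.8 FPKM. In polymerase alpha-primase, the primase catalytic subunit PRIM1 had 52.7 FPKM, 2.39 times its partner PRIM2 at 22.1, and POLA2 had 31.4 beside 22.8 for the catalytic POLA1. Of the leading-strand polymerase epsilon, POLE2 had 27.9 FPKM and the catalytic POLE 21.0. The remaining subunits of polymerases epsilon and delta are counted with the further genes described below, among them POLE3 of epsilon at 108 FPKM. Polymerase delta, which copies the lagging strand, was uneven: the accessory subunit POLD2 had 164 FPKM, 10.1 times the catalytic POLD1 at 16.2 and 9.59 times POLD3 at 17.1.

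PCNA, the ring that tethers polymerases to DNA, was the highest of all 46 at 259 FPKM. The loader that opens it was uneven, with 125 FPKM for RFC4, 77.0 for RFC2, 39.5 for RFC5, 33.3 for RFC3 and 25.1 for the large subunit RFC1. The trimeric RPA, which coats single-stranded DNA, was within 1.94-fold, at 59.2 FPKM for RPA1, 41.1 for RPA2 and 30.5 for RPA3. The flap nuclease FEN1 had 132 FPKM, 4.97 times the ligase LIG1 at 26.6. Of the topoisomerases, TOP2A had 91.5 FPKM, TOP1 58.8 and TOP2B, the form made also outside the cycle, 49.3.

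For 10 of the 46 genes the annotation names a pseudogene that could share reads with them, among them PCNA, POLD2, FEN1, PRIM2 and RPA3, so their levels are less certain. The loci of 12 genes, among them MCM7, RFC1, RFC4, PCNA, ORC4 and DBF4, were merged with those of neighboring genes in the RNA-seq table. Their levels are less certain as well.

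A gene TSS was called for 39 of the 46 genes, beside a background of 37.3% of all genes and 82.8% of genes in the FPKM range of the 46. These backgrounds include any gene without an annotated mRNA start, which could not receive a call. The 7 replication genes without a called gene TSS were CDT1, MCM2, CDC45, POLD3, RPA2, RPA3 and LIG1, with 17.1 to 95.3 FPKM. Nothing of any class was called within 2000 nts of the start of the annotated main transcript of 5 of them. At CDC45, the neighbor UFD1 (36.5 FPKM) started on the opposite strand, 735 nts upstream of the start of the main CDC45 transcript. Its offset from the nearest annotated CDC45 start was -272 nts. At LIG1, a gene TSS assigned to ZSWIM9 (2.49 FPKM) was called on the other strand. It lay 362 nts downstream of the start of the main LIG1 transcript and 226 nts downstream of the nearest annotated LIG1 start. That call had an offset of -698 nts from the nearest annotated start of ZSWIM9 (negative is upstream), so its assignment is less certain.

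The authors searched for gene TSSs only in windows about annotated mRNA starts and, of candidate sites, kept the one nearest to the annotation. The called starts were therefore close to the annotation in part by construction. They lay a median of 7 nts from the nearest annotated start (10 nts over all gene TSSs), and 23 of 43 were within 10 nts. More than 100 nts away were 6, beside a background of 18.0%: the offsets were -607 nts for POLE, -510 for ORC1, -449 for RFC2, -118 for a start of MCM7, 146 for TOP2B and 154 for a start of RFC4, where negative is upstream. MCM7, PCNA, POLD2 and RFC4 each had 2 gene TSSs, as did 4.35% of all genes with a call (2 or more). Those of PCNA were 6644 nts apart, at 5100604 and 5107248 on chromosome 20, and each was within 24 nts of an annotated start. Those of MCM7 were 1302 nts apart, those of RFC4 436 nts and those of POLD2 270 nts. The FPKM value of each of these genes covers both starts together.

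A uaTSS was called at 21 of the 43 gene TSSs (48.8%, 33.3 to 64.5%; background 53.1%) and a daTSS at 14 (32.6%, 19.1 to 48.5%; background 28.4%). Both intervals include the share over all gene TSSs. Both kinds were present at 11 gene TSSs (25.6%, against 17.5% of all), a uaTSS only at 10 (23.3%, against 35.6%), a daTSS only at 3 (6.98%, against 11.0%) and neither at 19 (44.2%, against 35.9%). The background share lies within the interval of the replication genes for each of these 4 classes.

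By role, the antisense starts come in small counts, which were not compared. Over all gene TSSs, 53.1% had a uaTSS and 28.4% a daTSS. All 3 topoisomerase gene TSSs had a uaTSS, as did 5 of 8 of the clamp and its loader and 4 of 7 of the helicase activators. The polymerases and primase had daTSSs at 5 of 9 gene TSSs and uaTSSs at 3. Of the 6 gene TSSs of the MCM helicase, 2 of them of MCM7, 2 had a uaTSS, those of MCM4 and MCM5. A daTSS was called at 2, those of MCM3 and MCM4. In the origin recognition complex, ORC2 had both, ORC5 had a uaTSS and the other 4 had neither. The genes with a daTSS and no uaTSS were MCM3, POLA1 and PRIM1.

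Genes with a uaTSS only had a median of 59.6 FPKM (10 genes, 18.6 to 259), those with both 28.0 FPKM (11 genes, 8.35 to 252), those with a daTSS only 52.7 FPKM (3 genes, 22.8 to 95.2) and those with neither 24.3 FPKM (17 genes, 5.90 to 259). The ranges overlap widely, and PCNA and RFC4 count in each of 2 classes because their 2 gene TSSs differ. Over all gene TSSs the medians were 18.8 FPKM with a uaTSS only, 21.4 with both, 13.2 with a daTSS only and 14.0 with neither.

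**Figure D3:**
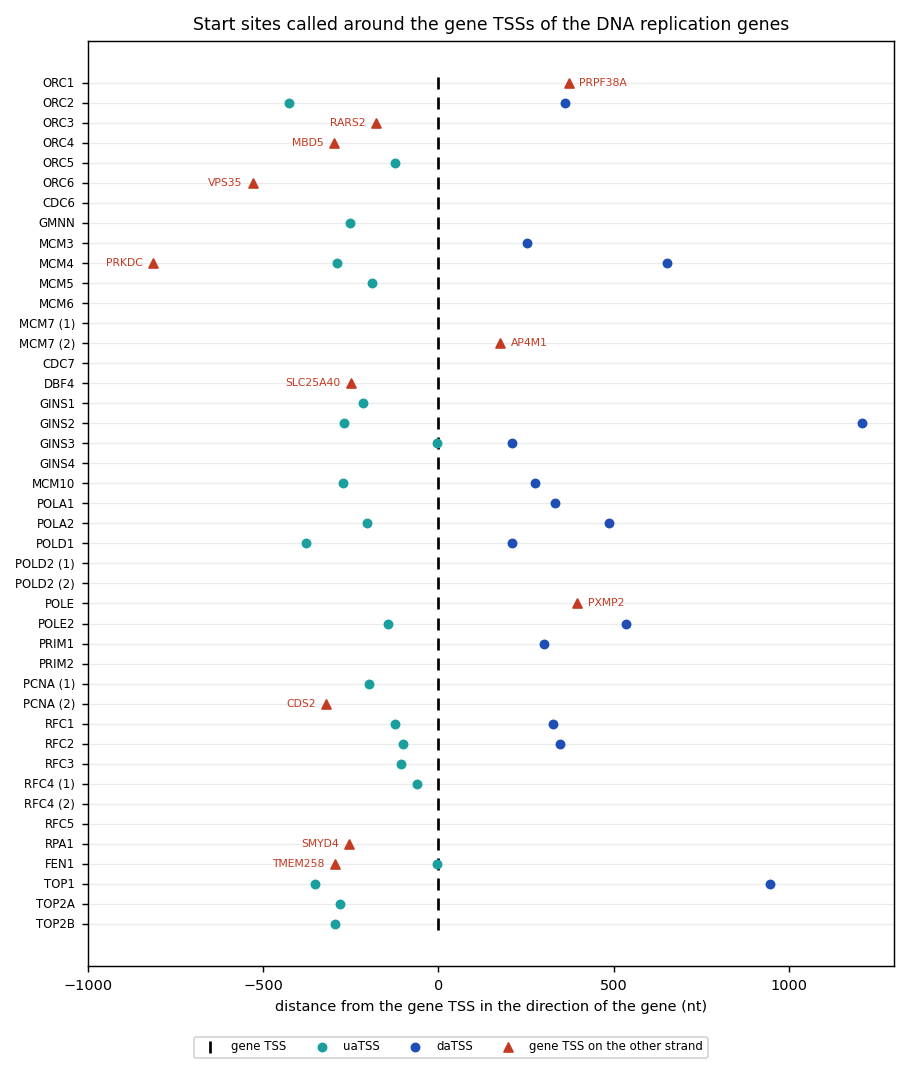
Distance of each called uaTSS, daTSS and opposite-strand gene TSS from the 43 replication gene TSSs, in nts in the direction of the gene, grouped by role from the origin recognition complex (top) to the topoisomerases (bottom); (1) and (2) mark the gene TSSs of a gene with more than 1, by rising genome position. uaTSSs span 4 to 427 nts upstream and daTSSs 210 to 1209 nts downstream, with that of GINS2 the farthest.

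The uaTSSs lay a median of 203 nts upstream (quartiles 124 and 282), beside 200 nts for all uaTSSs. The farthest were those of ORC2 at 427 nts, POLD1 at 379 nts and TOP1 at 352 nts. The nearest were those of FEN1, 4 nts from the gene TSS, and GINS3, 5 nts from it, followed by RFC4 at 60 nts. At FEN1 and GINS3 the starts on the opposite strands nearly coincide, which is why both are shown, chosen after their values were seen. Each line is the plus strand, on which the gene lies, chr11:61560337-61560376 for FEN1 and chr16:58426288-58426327 for GINS3, with the base of the uaTSS and then the base of the gene TSS in capitals.
FEN1: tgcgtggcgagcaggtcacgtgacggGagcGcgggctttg
GINS3: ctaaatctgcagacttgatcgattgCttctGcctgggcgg

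The daTSSs lay a median of 339 nts downstream (interval of the median 253 to 651 nts), beside 507 nts (491 to 526) for all daTSSs. The interval for the replication genes includes 507 nts. Of the 14, 10 were at or under that 507 nts. Within 400 nts, a limit that was not among the planned settings, were 9 (64.3%, against 36.0% of all daTSSs). No interval was computed for that share, and the difference was not tested. The nearest were those of GINS3 and POLD1, both 210 nts downstream, followed by MCM3 at 253, MCM10 at 274, PRIM1 at 302, RFC1 at 327, POLA1 at 332, RFC2 at 346 and ORC2 at 362 nts. Farther away were POLA2 at 485, POLE2 at 534, MCM4 at 651 and TOP1 at 944 nts. Within 1000 nts were 13 of the 14, as were 84.8% of all daTSSs, and that of GINS2 was called at 1209 nts.

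By the annotated main transcript, 10 of the 14 daTSSs were in intron 1 (71.4%), near the background of 63.9% of all daTSSs, and that of TOP1 was in intron 2. Those of GINS3 and MCM4 were in exons 1 and 3, respectively. The daTSS of RFC2 was 103 nts upstream of the annotated start, because the gene TSS called for RFC2 was itself upstream of the annotation.

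A gene TSS of another gene lay on the other strand within 1000 nts upstream at 8 of the 43 gene TSSs (18.6%, 8.39 to 33.4%; background 11.5%). ORC3 was 179 nts from RARS2, the mitochondrial arginyl-tRNA synthetase, and DBF4 was 248 nts from the mitochondrial carrier SLC25A40. RPA1 lay 254 nts from SMYD4, FEN1 295 nts from TMEM258, ORC4 298 nts from MBD5 and PCNA 320 nts from CDS2. ORC6 was 528 nts from VPS35 and MCM4 was 813 nts from PRKDC, the catalytic subunit of the DNA-dependent protein kinase. Counting annotated starts on the other strand, called or not, raised the share to 32.6% (14 gene TSSs), beside 33.3% of all gene TSSs. These annotated starts are of transcripts of any type, whereas the authors called gene TSSs from mRNA starts only. The shares by called and by annotated starts therefore count unlike sets.

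The closest pairs are shown whole, from the gene TSS of the neighbor to that of the replication gene, on the plus strand, chr6:88299708-88299887 for ORC3 and RARS2 and chr7:87505672-87505920 for DBF4 and SLC25A40. The first and last base, which are the gene TSSs, and the CCAAT and GC boxes are in capitals.
ORC3/RARS2: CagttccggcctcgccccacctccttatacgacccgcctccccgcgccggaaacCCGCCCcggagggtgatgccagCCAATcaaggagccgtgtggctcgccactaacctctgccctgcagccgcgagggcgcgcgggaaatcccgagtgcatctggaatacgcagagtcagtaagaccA
DBF4/SLC25A40: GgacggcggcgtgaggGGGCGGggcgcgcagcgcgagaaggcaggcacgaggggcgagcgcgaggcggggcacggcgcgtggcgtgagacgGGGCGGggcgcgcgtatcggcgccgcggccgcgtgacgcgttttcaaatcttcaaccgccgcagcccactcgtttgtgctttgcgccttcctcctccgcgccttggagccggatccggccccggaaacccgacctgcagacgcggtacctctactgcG

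Between ORC3 and RARS2 stand 1 CCAAT box and 1 GC box, and between DBF4 and SLC25A40 stand 2 GC boxes and no CCAAT box. These are also the pairs with the most equal levels: ORC3 had 24.3 FPKM beside 26.4 for RARS2, and DBF4 had 7.63 beside 8.64 for SLC25A40. The merged locus of DBF4 in the RNA-seq table spans the start of SLC25A40, so the levels of that pair may not be independent. The loci of ORC4 and PCNA were also merged with other entries. Other pairs were far from equal. PCNA had 23.4 times the FPKM of CDS2 (11.1) and RPA1 13.8 times that of SMYD4 (4.29), whereas VPS35 (57.8 FPKM) had 4.61 times that of ORC6. The FPKM of PCNA also covers its other gene TSS, which is not beside CDS2. TMEM258 had 314 FPKM, 2.37 times FEN1. MCM4 had 2.45 times PRKDC (46.3 FPKM), and ORC4, at 5.90 FPKM, was above MBD5 at 2.56.

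**Figure D4:**
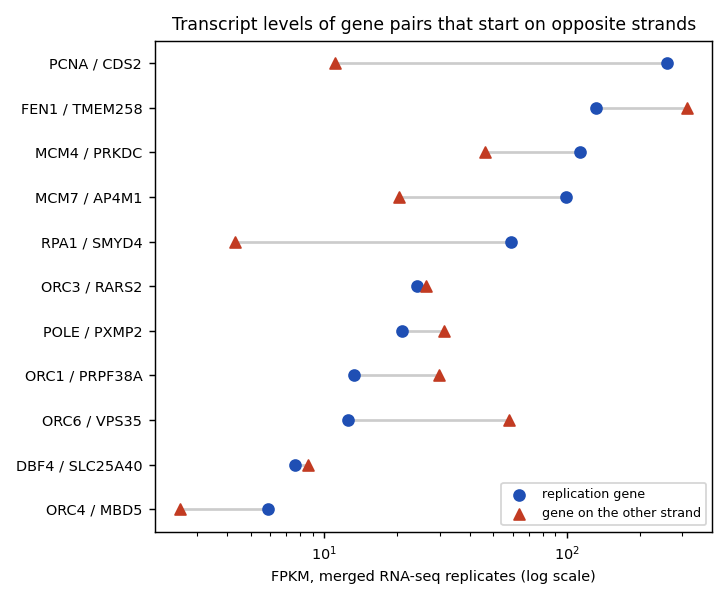
FPKM, on a log axis, of 11 replication genes (circles) and of the gene whose called TSS lies on the other strand within 1000 nts upstream or downstream (triangles), joined by a line. The replication gene is higher in 5 pairs and its neighbor in 6, and the pairs ORC3 with RARS2 and DBF4 with SLC25A40 lie closest together. The values of PCNA and MCM7 also cover a gene TSS of theirs that is not in the pair.

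At 3 more gene TSSs the neighbor starts downstream on the other strand, so that the transcripts overlap at their 5' ends (6.98%, 1.46 to 19.1%; background 2.93%). AP4M1 started 176 nts inside MCM7 and had 20.4 FPKM, while MCM7 had 4.90 times that level. PRPF38A (29.9 FPKM) started 372 nts downstream of the ORC1 gene TSS, and PXMP2 (31.4 FPKM) 396 nts downstream of that of POLE. The gene TSSs of ORC1 and POLE are the ones called farthest upstream of the annotation, and both neighbors start upstream of the annotated starts of ORC1 and POLE, at offsets of -138 and -211 nts. With the annotated starts of ORC1 and POLE, these pairs would be divergent rather than overlapping.

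Replication gene TSSs with such an upstream neighbor rarely had a uaTSS as well: 2 of 8 did (25.0%), FEN1 and MCM4, beside 19 of the other 35 (54.3%). Over all gene TSSs the shares were 16.2% of 1198 and 57.9% of 9193. The search space for uaTSSs is the same 1000 nts in which the neighbor starts, so these calls are not independent of each other.

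A further 40 genes act in or beside this machinery. They cover origin firing and checkpoint, polymerase and clamp partners, chromatin assembly and DNA methylation, and nucleotide supply. Their median was 23.6 FPKM, from 4.40 for the clamp unloader ATAD5 and 4.47 for the checkpoint adaptor CLSPN to 108 for POLE3, a small subunit of polymerase epsilon, and 144 for the thymidine kinase TK1. The median was 59.1 FPKM for the 8 nucleotide supply genes, 33.4 for the 12 polymerase and clamp partners, 29.0 for the 8 chromatin assembly genes and 16.6 for the 12 firing and checkpoint genes. A gene TSS was called for 36 of the 40, all but POLE3, RNASEH2A, CHTF8 and KIAA0101, beside 74.5% of all genes with at least 1 FPKM. That background again includes any gene without an annotated mRNA start.

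Of these 36 gene TSSs, 21 had a uaTSS (58.3%, against 53.1% of all gene TSSs) and 9 a daTSS (25.0%, against 28.4%). An upstream gene TSS on the other strand was called at 6 (16.7%, against 11.5%). An E2F core was found at 8 of these 36 (22.2%, 10.1 to 39.2%, against 7.84% of all gene TSSs). A CCAAT box was found at 16 (44.4%, 27.9 to 61.9%), an interval that includes the 31.7% of all gene TSSs.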

How the data were processed

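The labels list 7 libraries of T-47D cells: 2 of Start-seq, 3 of RNA-seq, 1 of MNase-seq and 1 of FAIRE-seq. The MNase-seq, FAIRE-seq and second Start-seq libraries (replicate 2) do not enter any value. The authors trimmed reads with Cutadapt 1.2.1, aligned Start-seq to hg19 with Bowtie 0.12.8 and called TSSs at 5' ends. They dropped daTSSs near annotated starts on the same strand, which lowers daTSS calls beside overlapping genes. The deposited calls have a score of 0 throughout and no read counts. The deposited FPKM values were estimated by the authors with TopHat2 2.0.4, Picard 1.118 and Cufflinks 2.2.1 from 3 merged replicates, so depth per library is unknown and there is no spread between replicates. No column of values per library was present.

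Gene TSSs were assigned to the nearest annotated transcript start on the same strand, within 1000 nts, in GENCODE models lifted to GRCh37, and uaTSSs and daTSSs were joined by identifier. Sequence came from GRCh37. Promoter words were exact matches, and overlapping matches on both strands each count. Shares have Clopper-Pearson intervals at 95% and medians have order-statistic intervals. Both cover counting only, and overlapping genes share starts. No test over genes was made. Assignment, pairing and the E2F search were checked on simulated data, with 100.0% of planted items recovered among 2000, 2000 and 500, respectively. Computations used Python 3.11.15, numpy 2.4.6, pandas 2.3.3, scipy 1.17.1, pysam 0.24.0 and matplotlib 3.10.9.

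The members and lists were chosen with earlier results of these data known. The rule named every member with its FPKM and calls, genes whose TSS lies beside a member, and the 2 highest, the 2 lowest and the uncalled of the other replication genes. Printed promoters were those with the nearest E2F cores and the closest divergent pairs. Alternatives were other distances, windows and backgrounds, 1 gene TSS per gene, and log2 means with pseudocounts of 0.1 and 1. Leaving out gene TSSs over 100 nts from the annotated start was added after the data were seen.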

Additional observations from a re-analysis of the deposited data

How the results depend on the processing

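Of 28 alternatives over 9 results, 27 gave a value within the 95% interval of the reported one (counts of genes within 1.5 times), an interval that is wide for 43 gene TSSs, and 1 did not: mean GC content was 60.0% in 1000 nts around the replication gene TSSs, beside 62.9% over all gene TSSs, where the window is wider by construction. For mean GC content the interval used was that of the median (63 to 68%). The log2 means of FPKM were also set against the interval of the median. Some of the 27 could not differ. Every replication gene has at least 1 FPKM, and all their gene TSSs lie in their own range of GC content. Alternatives with those filters therefore changed only the background and say nothing about how stable the reported values are. The number of genes with a called gene TSS was 37 to 39, and the share with a uaTSS was 48.8 to 54.3%. A daTSS was held by 30.2 to 37.1% and a divergent gene TSS by 14.0 to 32.6%. The highest, with annotated starts of any transcript type in place of 18.6% with called ones, stood beside 33.3% of all gene TSSs. By that unlike measure the share of the replication genes was no higher than the background. The E2F core fell from 27.9 to 18.6% (background 4.83%) with 100 nts upstream and was at 34.9% (14.0%) with 500 nts upstream to 100 nts downstream. Against gene TSSs in the same range of GC content its background was 8.23%, and without gene TSSs over 100 nts from the annotation, an alternative chosen after seeing the data, it was at 32.4% (8.39%). No paired analysis was possible because the RNA-seq replicates are merged and the calls come from 1 library. Leaving out a replicate could not be run for the same reason. Depth limits every missing call, and its size is unknown here.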
